A study of Oncorhynchus mykiss with 15 samples.

Results

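The mitochondrial carriers of solute carrier family 25 (SLC25), together with the uncoupling proteins, were examined in rainbow trout liver. A gene was taken as a member when one of its deposited gene names began with slc25a, slc25a37 apart, or was ucp1, ucp2 or ucp3, or when its deposited description began with ADP/ATP translocase. The rule used no measured value and found 104 of the 34965 genes in the deposited table. The members fall into 41 carrier types by symbol, 31 of which have at least 2 gene copies, and they lie on 28 chromosomes.

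The series addresses how trout liver responds to hypoxia of different lengths. Liver RNA of Oncorhynchus mykiss aged 150 days was sequenced in 15 libraries, 3 for each of 5 treatments given as N, H3h, H12h, H24h or R3h. What the letters stand for is not written in the labels. By the series text the comparison concerns hypoxia, and the times in the labels are 3, 12 and 24 h for the H groups and 3 h for R3h. Neither strain, sex, water oxygen nor whether a library is 1 fish or a pool is given in the labels, so p-values measure the spread between these libraries, which may be technical. All groups shared age and tissue, and N served as the reference for the other 4.

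Proteins of this family sit mainly in the inner mitochondrial membrane, where each exchanges or imports a particular kind of solute between cytosol and matrix. Through them ADP enters and ATP leaves, phosphate and carnitine esters are taken up, citrate and malate cross, and nucleotides, iron and amino acids reach the matrix. In liver these movements link the respiratory chain with gluconeogenesis, fat oxidation, urea production and haem synthesis. Trout descend from an ancestor that duplicated its whole genome, and many carriers are present as several copies.

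Total counts per library were 45364029 to 70416280. Levels are given as scaled FPKM, the deposited FPKM, a count per transcript length and library depth, divided by a library factor (TMM) that corrects for differences in composition. Against N the factor adds 0.52 on the log2 scale to H12h, 0.32 to H24h, 0.39 to R3h and -0.04 to H3h, and directions smaller than these shifts depend on it. Whether groups overlap can depend on it as well, since it differs between libraries of a group, in N from 0.977 to 1.32. Overlap is read from scaled levels. One library stood apart. In replicate 3 of R3h, 11 of the 75 tested members (14.7%) were under 20% of the lowest of the other 14 libraries, as were 8.82% of all genes tested, against at most 1 member and 0.451% of all genes in any other library. Its log2 levels had a mean correlation of 0.733 with the other R3h libraries, where the other 14 had 0.811 to 0.928 with their own groups. The summed hepatocyte marker level was at least 28160 scaled FPKM in every library, and striated muscle markers summed to at most 1.67.

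Expression was concentrated in few members. Of the 104, 75 had a mean of at least 0.5 FPKM and entered the tests (72.1%, against 50.05% of all genes), 52 reached 1, 13 reached 10 and 6 reached 50. The most abundant copy held 31.3% of all member FPKM, the first 3 held 53.5% and the first 10 held 82.5%. Among the 6 above 50 FPKM were the 3 Slc25a5 copies, with means of 338, 131 and 108 FPKM, followed by a pair of ucp2 copies and one SLC25A3 copy. The carriers together took 0.103 to 0.216% of all FPKM in a library.

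The remaining 29 members were too low to test. Each had at least some counts, and no library had more than 1.22 FPKM of any of them. For 8 carrier types no copy was tested, among them SLC25A10 (dicarboxylates), SLC25A13 (aspartate and glutamate), SLC25A15 (ornithine), SLC25A23 (ATP-Mg and phosphate), SLC25A30, SLC25A35 and SLC25A53. The ornithine carrier, which serves the urea cycle in mammalian liver, had 3 copies here with means of 0.021 to 0.14 FPKM. SLC25A13, the liver form of the aspartate and glutamate carrier in mammals, had 1 copy with at most 4 counts in a library. RefSeq's gene table lacks that copy (110488014), and whether its gene model is complete was not tested.

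In a test across the 5 groups, 6 of the 75 members (8%) were called at an adjusted p under 0.05 (edgeR quasi-likelihood test, Benjamini-Hochberg adjustment over 17502 genes), close to the 7.24% of all genes called. They were slc25a48, a pair of Slc25a5 copies, slc25a36a, one SLC25A22 copy and slc25a43. By single comparison, 3 members were called in R3h against N (4%, against 5.34% of all genes). By median SD the R3h libraries varied more among themselves than those of any other group. The fit used a shared spread estimate and did not allow for this, so the p-values of these calls may be too small. No member was called in H3h against N (0.0% of all genes), H12h against N (0.223%), H24h against N (0.2%), H24h against H12h (0.0%) or R3h against H24h (0.0%). At an unadjusted p under 0.05 those 5 comparisons held 2, 15, 10, 14 and 2 members. These were 2.67, 20, 13.3, 18.7 and 2.67% of the members, where all genes had shares of 2.19, 14.3, 19.7, 14.5 and 7.36%. DESeq2 called 0, 9, 3, 6 and 0 of the 75 members, and 0.08, 4.73, 7.2, 4.59 and 0.291% of all genes. Across groups 22 members had an unadjusted p under 0.05 (29.3%, against 29%), and in R3h against N there were 21 (28%, against 26.6%). The 4 comparisons with N share their reference libraries and are not independent of each other.

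Over the tested members the median log2 fold change against N was 0.10 for H3h and -0.05 for H12h, then 0.03 for H24h and 0.27 for R3h. The medians of all tested genes were 0.00, -0.07, -0.05 and -0.04. With limma on unscaled log2(FPKM + 1) the member medians were -0.29 in H12h, -0.15 in H24h and -0.17 in R3h, where all genes had -0.36, -0.22 and -0.29. That fit differs in transform and test as well as in scaling, and in both fits the member median lay above that of all genes in each of these comparisons. Members whose R3h libraries did not overlap N numbered 13 higher and 6 lower (25.3%, against 27.9% of all genes). There were 6 and 4 in H3h (13.3%, against 8.73%), 7 and 8 in H12h (20%, against 24.5%), and 14 and 7 in H24h (28%, against 31.9%). Between H24h and H12h there were 9 and 7 (21.3%, against 24.6%), and between R3h and H24h 3 and 3 (8%, against 9.22%).

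**Figure D1:**
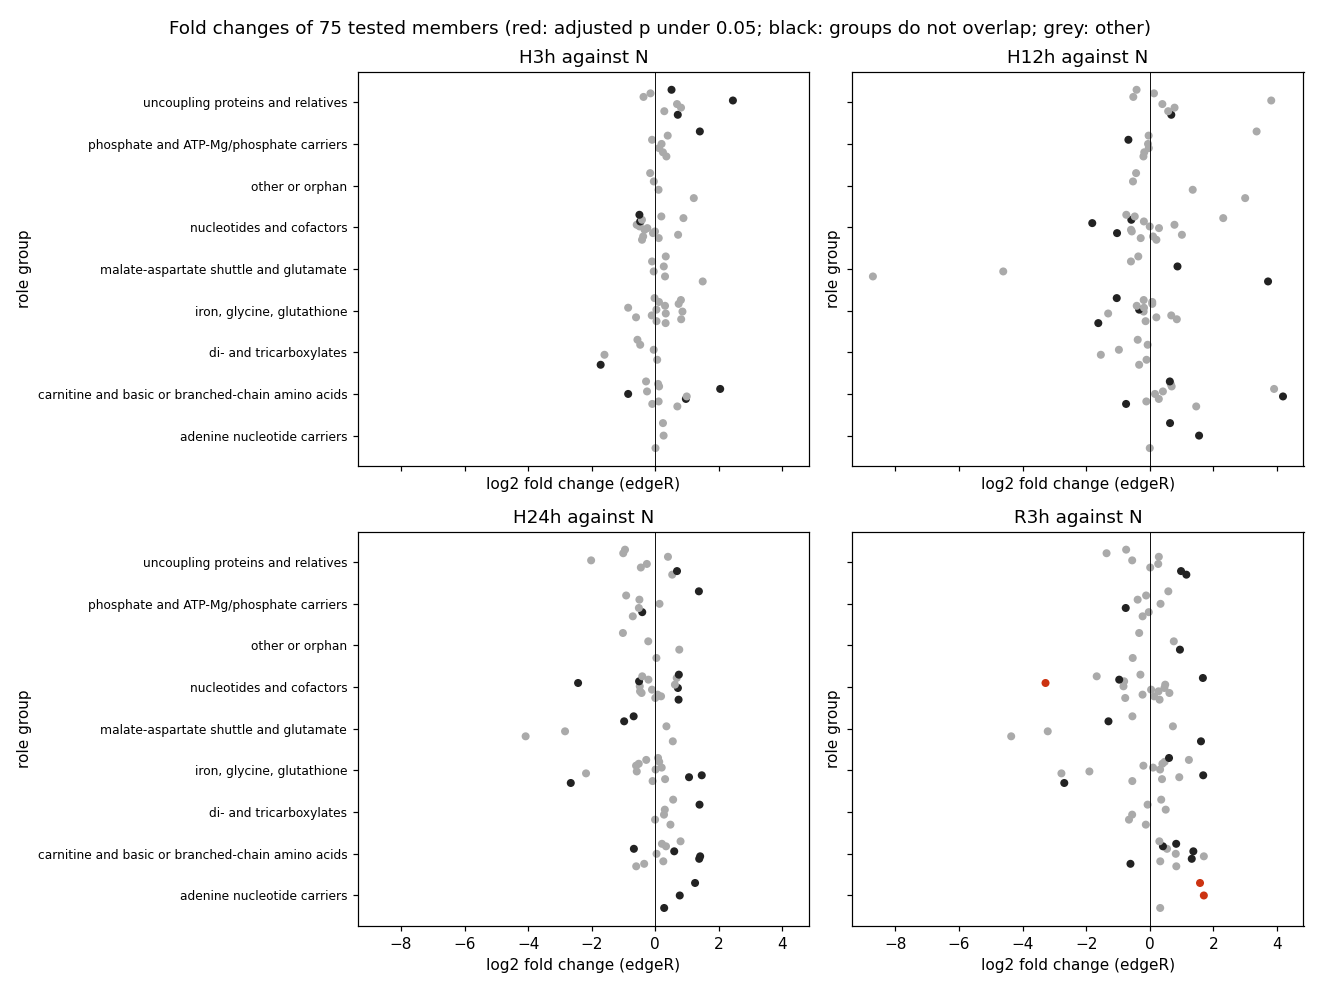
Log2 fold change against N (edgeR, x axis) of each of the 75 tested members, one point per gene, by role group (y axis), with 1 panel for each of H3h, H12h, H24h and R3h. Red points have an adjusted p under 0.05, black points have groups that do not overlap, and red appears in R3h only, for 3 members.

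The fold changes by role show most points within a narrow band around 0 and a few far from it. The far points on the right in H12h are single copies from several roles, and the far points on the left are a pair of low SLC25A22 copies described below.

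The adenine nucleotide carriers exchange cytosolic ADP for matrix ATP. All 3 members are Slc25a5 copies by the deposited names, the ADP/ATP translocase 2, though RefSeq gives 100301662 the symbol si:dkey-251i10.1. Copy 110504971, on chromosome 25 from 25787979 to 25790753 (the sources used here name no build), was the most abundant of all members. Its scaled FPKM was 224, 166 and 183 in N, 218, 167 and 292 in H3h, and 228, 324 and 341 in H12h. It was 255, 567 and 538 in H24h and 706, 559 and 447 in R3h. Every R3h and H24h library lay above every N library. Before division by the factor this held for R3h, whereas H24h overlapped N. It rose in R3h by 1.58 ± 0.37 (log2 fold change ± SE, n = 3 per group, edgeR adjusted p = 0.0328). In H24h it differed from N by 1.25 ± 0.37 (adjusted p = 0.124).

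Copy 110488772, on chromosome 14 from 53094265 to 53096801, stood at 63.9, 44.9 and 59.7 scaled FPKM in N and 67.2, 56.4 and 78.5 in H3h. It stood at 151, 234 and 111 in H12h, 106, 96 and 85.3 in H24h, and 181, 132 and 235 in R3h. All libraries of H12h, H24h and R3h exceeded all of N. Before division by the factor this held for H12h and R3h, whereas H24h overlapped N. The copy rose in R3h by 1.70 ± 0.34 (edgeR adjusted p = 0.0216), and differed from N by 1.55 ± 0.34 in H12h (adjusted p = 0.0676) and 0.77 ± 0.33 in H24h (adjusted p = 0.224).

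The third copy, 100301662 on chromosome 29, was named for its family and not by the naming rule. It had 127, 116 and 115 scaled FPKM in N, 111, 110 and 138 in H3h, and 107, 146 and 106 in H12h. It had 131, 165 and 138 in H24h and 194, 140 and 116 in R3h. Every H24h library lay above every N library, by 0.28 ± 0.28 (edgeR adjusted p = 0.596), but H24h and N overlapped before division by the factor. N and R3h overlapped, with a difference of 0.33 ± 0.28 (edgeR adjusted p = 0.466), which turned to -0.09 with limma on unscaled log2(FPKM + 1). Summed over the copies, Slc25a5 had 366 ± 44.5 (SD, n = 3) scaled FPKM in N and 413 ± 88.7 in H3h. The sum was 582 ± 111 for H12h, 694 ± 178 for H24h and 904 ± 155 for R3h. With counts of the copies summed before the fit, Slc25a5 rose in R3h by 1.32 ± 0.32 (adjusted p = 0.0357).

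Both R3h calls depended on single libraries, as did most calls over all genes. In this comparison 0.0628% of all genes were called without replicate 1 of N and 0.04% without replicate 3 of N, against 5.34% with all libraries. For 110488772 the adjusted p was 0.094 without replicate 1 of N and 0.11 without replicate 3 of N. For 110504971 it was 0.11, 0.061 and 0.13 without replicates 1, 2 and 3 of N, 0.087 without replicate 1 of R3h, and 0.06 with limma on log2(FPKM + 1). Without the library that stood apart, replicate 3 of R3h, the changes were 1.5 (adjusted p = 0.028) and 1.75 (adjusted p = 0.025). Across the 5 groups the adjusted p was 0.0238 for 110488772 and 0.0469 for 110504971 (edgeR). The first of these calls was lost without replicate 3 of N (0.062), replicate 1 or 2 of H3h (0.059 and 0.055), replicate 1 of H12h (0.051) or replicate 2 of H24h (0.052). The second held without replicate 3 of H12h (0.047), replicate 1 of H24h (0.038) or replicate 3 of R3h (0.029), and was lost without any of the other 12 libraries, up to 0.11. Calls across groups also fell over all genes, to 1.14% without replicate 3 of N, against 7.24% with all libraries. Marker sums were also compared between R3h and N. Endothelium markers, 3 genes, summed to 7.21 to 8.24 scaled FPKM in R3h and 4.16 to 5.38 in N, without overlap. In deposited FPKM the endothelium sums overlapped, at 5.84 to 7.84 in R3h and 5.25 to 6.95 in N. Erythrocyte markers summed to 524 to 1956 in R3h and 240 to 648 in N, and striated muscle markers to 0.869 to 1.67 and 0.850 to 0.978. Hepatocyte markers summed to 48880 to 78420 in R3h and 33740 to 56620 in N. The erythrocyte, muscle and hepatocyte sums overlapped between the groups. The part of these cells in the Slc25a5 levels was not tested. In bulk liver a change in the number of cells of a type and a change in RNA per cell cannot be told apart.

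The share of each copy in the summed Slc25a5 FPKM needs no scaling between libraries. Copy 100301662 made up 30.6, 35.5 and 32.1% in N and 28.1, 33 and 27.1% in H3h. It made up 22, 20.7 and 19% in H12h, 26.6, 19.9 and 18.2% in H24h, and 17.9, 16.8 and 14.5% in R3h. Its shares in H12h, H24h and R3h all lay below those in N. Their means differed from the N mean of 32.7% by -12.2, -11.2 and -16.3 percentage points. Each had p = 0.1 in an exact permutation test (two-sided), which is the limit for 3 libraries against 3. Copy 110504971 held 52% ± 1.73 (SD, n = 3) in N and 62.9% ± 6.03 in R3h.

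**Figure D2:**
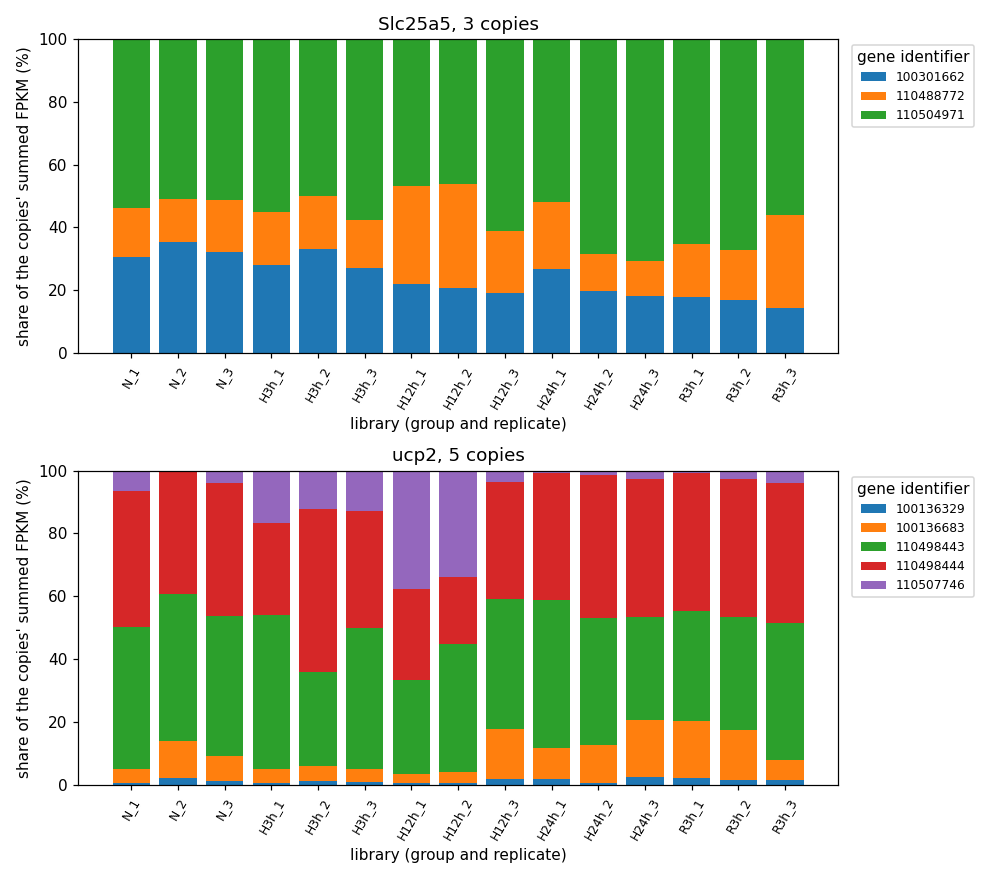
Share (%) of each gene copy (colours, by gene identifier) in the summed FPKM of the 3 Slc25a5 copies (top) and of the 5 ucp2 copies (bottom), one bar per library. Slc25a5 copy 100301662 holds 30.6 to 35.5% in N and 14.5 to 17.9% in R3h, and ucp2 copy 110507746 exceeds 30% in replicates 1 and 2 of H12h alone.

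Several carriers were high in replicates 1 and 2 of H12h and near the N level in replicate 3. The member with the smallest p across the 5 groups was slc25a48 (110504517, chromosome 25 from 5498176 to 5505891), whose mammalian counterpart takes part in mitochondrial choline uptake. It stood at 2.69, 5.54 and 5.27 scaled FPKM in N, 3.65, 13.2 and 10.1 in H3h, and 80.1, 145 and 22.4 in H12h. It then stood at 16, 11.1 and 9.04 in H24h and 16.4, 24.9 and 2.82 in R3h. All H12h libraries, including replicate 3, exceeded every N and H24h library. The test across the 5 groups gave an adjusted p of 0.0218 (edgeR), and H12h differed from N by 4.19 ± 0.82 (adjusted p = 0.0603). The call across groups was lost without replicate 3 of N (adjusted p = 0.054), replicate 1 of H12h (0.058) or replicate 2 of H12h (0.076).

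The SLC25A22 copy 110494701, annotated as mitochondrial glutamate carrier 1, had 0.554, 0.768 and 1.20 scaled FPKM in N, 2.62, 3.33 and 1.20 in H3h, and 6.87, 25.4 and 1.28 in H12h. Levels were 0.984, 1.16 and 1.56 in H24h and 2.42, 1.37 and 3.95 in R3h. H12h spanned a wide range, with replicate 3 just above the highest N library. Before division by the factor this replicate lay within N, with 209 counts against 86, 114 and 250 in N. Across groups the adjusted p was 0.0345 (edgeR), and H12h differed from N by 3.72 ± 0.83 (adjusted p = 0.0682). That call held without replicate 2 of N, replicate 3 of H12h, replicate 2 of R3h or replicate 3 of R3h (adjusted p of 0.043, 0.0059, 0.028 and 0.022), and was lost without any of the other 11 libraries, up to 0.15 without replicate 2 of H12h.

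An orphan carrier of unknown substrate, slc25a43 (110488771, chromosome 14), had 1.18, 1.21 and 0.480 scaled FPKM in N, 1.07, 3.70 and 1.86 in H3h, and 8.46, 13.8 and 0.875 in H12h. It had 0.468, 1.44 and 1.03 in H24h and 1.07, 0.323 and 0.579 in R3h. Replicates 1 and 2 of H12h were the highest of the 15 libraries, while replicate 3 lay inside the range of N. Its adjusted p across groups was 0.0364 (edgeR). The call held without replicate 2 of N, replicate 3 of H12h, replicate 2 of R3h or replicate 3 of R3h (0.038, 0.0071, 0.038 and 0.034) and was lost without any of the other 11, up to 0.14 without replicate 2 of H12h.

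A further 3 carriers were also lowest in replicate 3 of H12h and were not called across groups. The calcium-regulated ATP-Mg and phosphate carrier slc25a25a (110535888) stood at 7.04, 5.78 and 13.5 scaled FPKM in N, 25.5, 14 and 30.1 in H3h. In H12h it stood at 99.9, 166 and 6.56, in H24h at 19.8, 31.1 and 17.4, and in R3h at 22.7, 5.51 and 11.4. Its adjusted p was 0.0585 across groups (edgeR), and H3h and H24h did not overlap N. Before division by the factor H3h overlapped N. The basic amino acid carrier SLC25A29 (110522494) stood at 0.144, 0.133 and 0.212 in N, 0.427, 1.22 and 0.449 in H3h. In H12h it stood at 2.66, 4.99 and 0.0625, in H24h at 0.105, 0.0815 and 0.119, and in R3h at 0.247, 0.485 and 0. In H3h it lay above N in all 3 libraries, and in replicate 3 of H12h it lay below every N library. The pyrimidine nucleotide carrier slc25a33 (110532819), the highest of the nucleotide and cofactor group, stood at 9.63, 2.18 and 6.24 in N, 39.6, 45.2 and 5.46 in H12h, and 16.8, 9.82 and 31 in R3h.

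Of the 11 members whose mean in H12h was at least 2-fold that in N, replicate 3 was the lowest H12h library in 11 (100%), against 75.5% of the genes with such a rise in mean. It lay at or below the highest N library in 8 of them (72.7%, against 37.2%). Without that library 8 members were called in H12h against N (3.12% of all genes). The library is singled out here because its low values in these members were seen, so these calls and folds follow in part from that choice and are given as a description. The 7 higher ones were slc25a48 (4.64), SLC25A29 (4.48), SLC25A22 110494701 (4.24), slc25a25a (3.91), slc25a43 110488771 (3.53), slc25a33 (2.81) and Slc25a5 110488772 (1.77), with edgeR adjusted p of 0.004 to 0.037. The lower one was the folate carrier SLC25A32 (110538887), at -2.1 (adjusted p = 0.032). In H24h against H12h 7 members were then called (2.25% of all genes), 6 lower and SLC25A32 higher. The macrophage marker sum did not set replicate 3 of H12h apart, at 149 scaled FPKM against 152 and 196. It is mostly CD74, whose copies had means of 32.3 and 82.6 FPKM over all libraries, against 1.22 to 7.42 for the other macrophage markers. The adipocyte marker sum was 2.46 in replicate 3 of H12h against 17.9 and 16.9, and its part in these differences was not tested. That sum is mostly 1 gene, CIDEC, with a mean of 6.83 FPKM over all libraries against 0.097 to 0.745 for the other adipocyte markers. It therefore reflects that gene more than adipocyte markers as a set.

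**Figure D3:**
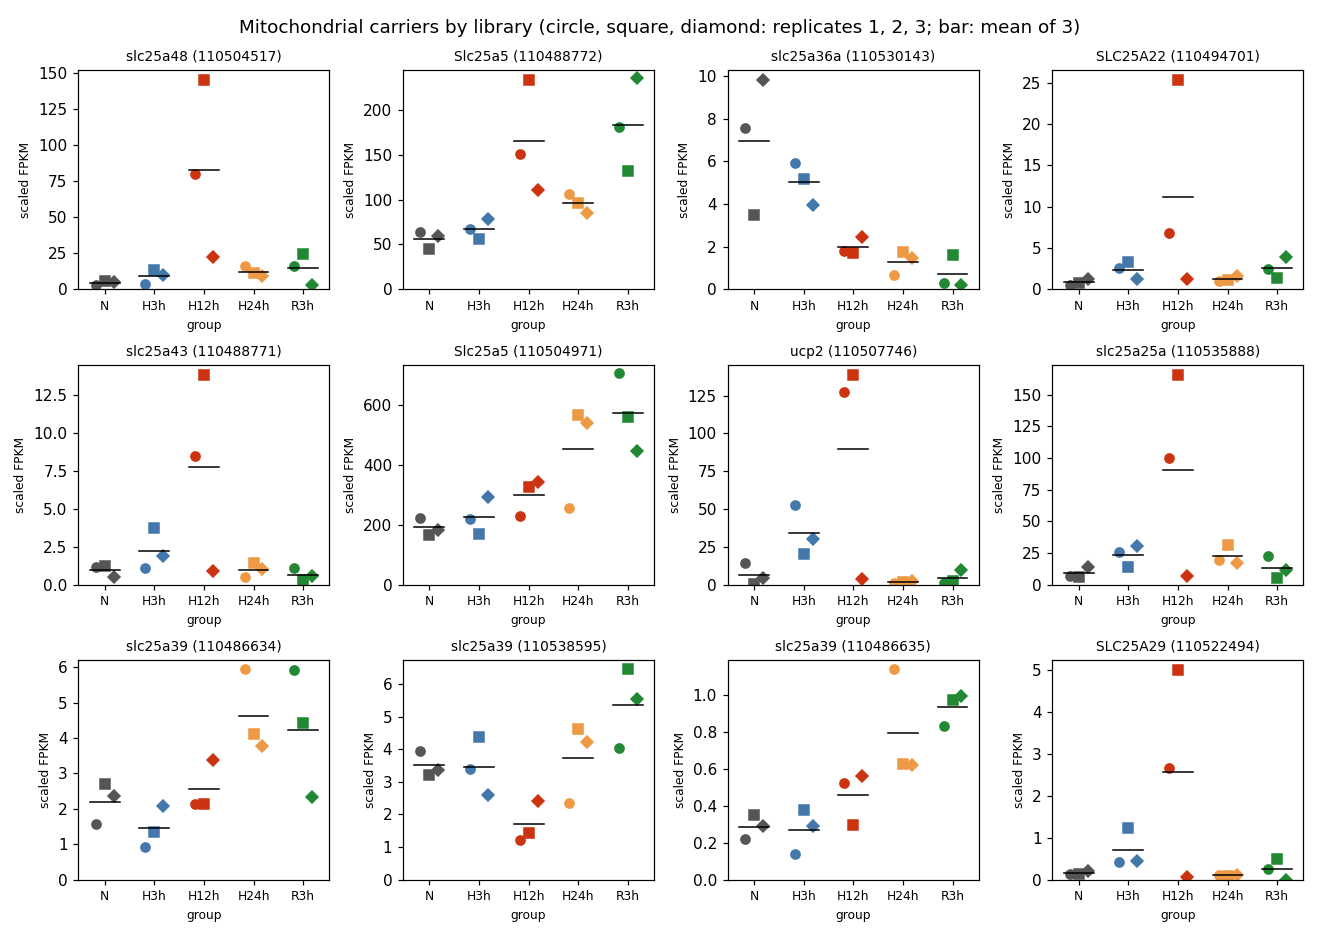
Scaled FPKM (y axis, from 0) in each library of the 12 members with the smallest p across the 5 groups (x axis), with circle, square and diamond for replicates 1, 2 and 3 and a bar for the mean of 3. In slc25a48, SLC25A22, slc25a43, slc25a25a, SLC25A29 and ucp2 110507746 the circle and square of H12h stand above the other groups while the diamond lies lower.

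The uncoupling proteins belong to the same carrier family and let protons or small acids cross the inner membrane. By its deposited description SLC25A27 (110522272, mean 3.80 FPKM) is mitochondrial uncoupling protein 4. Members with a ucp gene name were all ucp2, in 5 tested copies, and none had the name ucp1 or ucp3. Copy 110507746 (chromosome 27) varied most. It had counts of 1912, 17 and 822 in N, 10581, 2675 and 5610 in H3h, and 13963, 10311 and 473 in H12h. Counts were 99, 169 and 346 in H24h and 103, 322 and 1087 in R3h. All H3h libraries exceeded all of N, whereas replicate 3 of H12h lay within N. Its adjusted p across groups was 0.0541 (edgeR), with 2.44 ± 1.33 in H3h against N (adjusted p = 1.0) and -5.84 ± 1.55 in H24h against H12h (adjusted p = 0.13).

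Its share of the summed ucp2 FPKM was 6.49, 0.242 and 3.96% in N, 16.6, 12.1 and 13% in H3h, and 37.6, 33.9 and 3.74% in H12h. It was at most 2.56% in an H24h library and 4.05% in an R3h library. H3h and N shares did not overlap, and the difference in means of 10.3 percentage points had p = 0.1 in the exact permutation test, again its limit. The abundant copies 110498443 and 110498444, both on chromosome 19, had 99.5, 25.7 and 51.6 and 94.9, 21.4 and 49.1 scaled FPKM in N. The latter was named as its neighbour in level and not by the rule. In N all copies but the low 100136329 were highest in replicate 1 and lowest in replicate 2. Macrophages express ucp2 in mammals, and the macrophage marker sum, mostly CD74 over all libraries, was 39.8, 238 and 138 scaled FPKM in N. Its part in the ucp2 levels was not tested.

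Among nucleotide carriers, slc25a36a has 4 copies, and the proteins of this kind carry pyrimidine nucleotides in mammals. Copy 110530143 (chromosome 8 from 49841734 to 49867605) stood at 7.58, 3.50 and 9.82 scaled FPKM in N and 5.95, 5.18 and 3.95 in H3h. It stood at 1.82, 1.70 and 2.45 in H12h, 0.650, 1.77 and 1.48 in H24h, and 0.309, 1.61 and 0.218 in R3h. No library of H12h, H24h or R3h reached the lowest N library. It fell in R3h by 3.28 ± 0.67 on the log2 scale (edgeR adjusted p = 0.0239), and differed from N by -1.81 ± 0.64 in H12h (adjusted p = 0.215) and -2.43 ± 0.65 in H24h (adjusted p = 0.11). The call was lost without replicate 1 of N (adjusted p = 0.094), replicate 3 of N (0.11) or replicate 1 of R3h (0.065), and held at -2.84 without replicate 3 of R3h (0.031). Without replicate 1 or 3 of N few genes of any kind were called (0.0628 and 0.04% of all genes). Without replicate 2 of R3h the change of this copy was -4.69 (0.0035). Across the 5 groups its adjusted p was 0.0304 (edgeR). That call held without replicate 2 of N, replicate 3 of H12h, replicate 1 of H24h, replicate 2 of R3h or replicate 3 of R3h (0.022, 0.029, 0.047, 0.0065 and 0.021), and was lost without any of the other 10 libraries, up to 0.077 without replicate 3 of N.

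In R3h the other slc25a36a copies overlapped N. Copy 110504118 had 8.70 ± 2.46 (SD, n = 3) scaled FPKM in N and 8.98 ± 5.18 in R3h, copy 110507936 had 4.20 ± 1.53 and 2.37 ± 0.574, and copy 110508892 had 2.93 ± 1.97 and 4.11 ± 3.88, with 0 in replicate 3 of R3h. These copies were named as relatives of the called one. With the 4 copies summed, slc25a36a gave an adjusted p of 0.769 across groups.

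Carriers of the malate-aspartate shuttle move reducing equivalents between cytosol and matrix. The oxoglutarate and malate carrier Slc25a11 (110530845), the highest of the group, had 9.65 ± 0.754 (SD, n = 3) scaled FPKM in N, 12.1 ± 1.59 in H3h, 7.53 ± 1.87 in H12h and 6.01 ± 0.426 in H24h. H24h lay below N in all libraries, with a difference of -0.68 ± 0.56 (edgeR adjusted p = 0.511). In R3h it had 6.70, 12.2 and 0.994, the last in the library that stood apart.

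A pair of SLC25A22 copies lay next to each other on chromosome 6, 25031 bases apart. RefSeq's gene table lacks copy 110525048, and whether the pair are separate genes was not tested. Copy 110525048 had counts of 129, 0 and 33 in N and 184, 50 and 23 in H3h, then 0 in all 3 H12h libraries, 0, 0 and 9 in H24h, and 0, 7 and 0 in R3h. One N library was also at 0, so no fold change is given, and the adjusted p of H12h against N was 0.192 (edgeR). Its neighbour 110526530, named for its position, had 4.23, 0 and 0.866 scaled FPKM in N and no more than 0.104 in H12h. The exocrine pancreas markers summed to 3.79, 0.758 and 0.299 scaled FPKM in the same N libraries and 0.250 to 0.483 in H12h, and their part was not tested.

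Citrate leaves mitochondria through Slc25a1 and feeds fatty acid synthesis in the cytosol. The main copy 110537097 had 21.6, 64.2 and 21.6 scaled FPKM in N, 30.1, 21 and 31.6 in H12h, 33.5, 66.5 and 58.6 in H24h, and 66.7, 39.7 and 31.8 in R3h. H24h exceeded H12h in all libraries, by 0.94 ± 0.45 (edgeR adjusted p = 0.362), while N overlapped both. All 6 tested di- and tricarboxylate carrier genes had a positive log2 fold change in H24h against H12h (51.2% of all genes), with a median of 1.11 (0.02 over all genes) and 4 of the 6 not overlapping (24.6% of all genes), and none was called. The 6 are 3 copies of Slc25a1, 2 of slc25a34 and 1 of SLC25A21, and copies of a carrier are not independent. Every role group was read in 6 comparisons, and this result is singled out for its shared direction. In H12h against N none of the 6 was positive (median -0.36), and in R3h against H24h 1 was (median -0.62). Copy 110536180 had the lowest log2 fold change of R3h against H24h, -1.46 ± 1.04 (adjusted p = 0.762), which was -0.88 without replicate 3 of R3h, where it had 0.

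Phosphate for ATP synthesis enters through SLC25A3. Its main copy 110500174 ranged within 36.9 to 77.6 over the 15 libraries, with 52.9, 51.1 and 60 scaled FPKM in N and 58.2, 58 and 77.6 in H3h. It had 47.5, 52.5 and 45.8 in H12h, 45.8, 36.9 and 40.7 in H24h, and 42.4, 63.5 and 54.8 in R3h. H24h lay below N in every library, by -0.41 ± 0.26 (edgeR adjusted p = 0.393). The carnitine and acylcarnitine carrier SLC25A20 (110494978), which brings fatty acyl groups to beta-oxidation, had 23.6 ± 4.33 (SD, n = 3) in N and 29.7 ± 9.51 in R3h. Its groups overlapped, and the R3h difference of 0.33 ± 0.33 (adjusted p = 0.544) became -0.08 with limma on unscaled log2(FPKM + 1).

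Glutathione import is attributed to SLC25A39, which has 3 copies here. Copy 110486634 stood at 1.58, 2.69 and 2.35 scaled FPKM in N, 0.927, 1.35 and 2.08 in H3h. It then stood at 2.14, 2.15 and 3.38 in H12h, 5.95, 4.1 and 3.77 in H24h, and 5.93, 4.43 and 2.33 in R3h. Copy 110486635, 21881 bases away on chromosome 13, stood at 0.220, 0.348 and 0.291 in N, 0.138, 0.374 and 0.288 in H3h. Its H12h levels were 0.520, 0.294 and 0.562, its H24h levels 1.14, 0.625 and 0.621, and its R3h levels 0.828, 0.970 and 0.994. H24h exceeded N in all libraries of both copies.

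The remaining copy 110538595, on chromosome 12, stood at 3.94, 3.21 and 3.38 scaled FPKM in N, 3.40, 4.38 and 2.6 in H3h. H12h had 1.23, 1.44 and 2.43, H24h had 2.35, 4.63 and 4.21, and R3h had 4.03, 6.48 and 5.55. It lay below N in H12h and above N in R3h in all libraries. Before division by the factor this held for H12h, whereas R3h overlapped N. None of the 3 was called across groups singly, with edgeR adjusted p of 0.0602, 0.0679 and 0.0665. With their counts summed SLC25A39 was called across groups (adjusted p = 0.0381), as was SLC25A48 (0.0353).

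Iron and glycine for haem enter through mitoferrins and SLC25A38. The slc25a38b copy 110538473, the highest of the iron, glycine and glutathione group, had 9.03, 0.369 and 3.38 scaled FPKM in N, 4.76, 1.67 and 4.05 in H24h, and 5.78, 4.37 and 19.9 in R3h. Its R3h against H24h difference of 1.52 ± 0.87 (edgeR adjusted p = 0.726), the highest of that comparison, was 0.53 without replicate 3 of R3h. The mitoferrin-2 copy 110487244, chosen after its values were seen, had 7.78, 0.922 and 3.29 in N and 0.593, 1.13 and 0 in R3h, which overlapped. Red blood cells make haem when young, and their marker sum was 240, 648 and 388 scaled FPKM in N, 770.5, 3132 and 2544 in H24h, and 524, 1902 and 1956 in R3h. Its part in the levels of these carriers was not tested.

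The last named members were not called in any comparison. The carrier slc25a34 (110494966) had the lowest log2 fold change of H3h against N, -1.72 ± 0.73 (edgeR adjusted p = 1.0), with 0.440, 1.16 and 0.575 scaled FPKM in N and 0.167, 0.265 and 0.220 in H3h, which did not overlap. The outer membrane protein slc25a46 (110523880), which acts in membrane fusion and shape, had 2.66, 1.16 and 2.64 in N and 1.75, 1.13 and 8.06 in R3h. Its R3h difference of 0.76 ± 0.58 (adjusted p = 0.417) turned to -0.55 without replicate 3 of R3h.

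**Figure D4:**
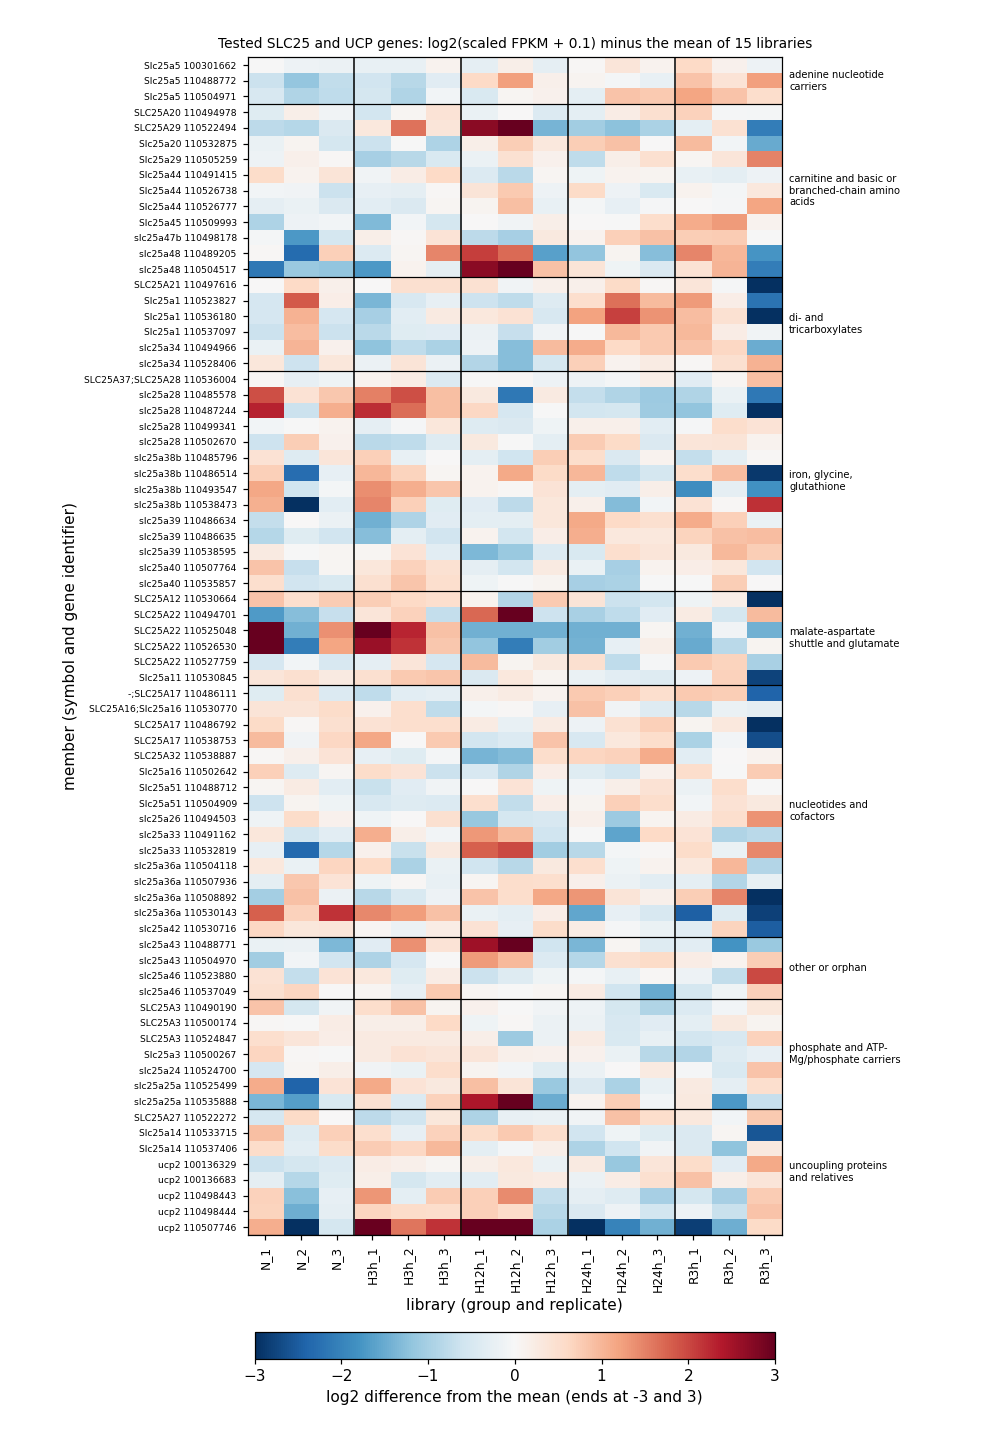
Log2(scaled FPKM + 0.1) of the 75 tested members (rows, by role group) minus each member's mean over the 15 libraries (columns, by group and replicate), with colour ending at -3 and 3. Dark cells include the red ones of replicates 1 and 2 of H12h and the blue ones of replicate 3 of R3h, where 11 members are under 20% of the lowest other library. Some members also vary strongly elsewhere, such as ucp2 110507746, which is low in replicate 2 of N.

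The map of all tested members sets these libraries side by side. In replicate 3 of R3h the 11 low members include carriers of citrate, oxoglutarate, coenzyme A and peroxisomal cofactors. Any R3h mean or fold change of such a member includes this low library, unless given as without it.

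Neighbouring members did not always have like levels. The Slc25a5 copy 110488772 lies 6021 bases downstream of slc25a43 110488771 on the same strand of chromosome 14. On chromosome 25, Slc25a5 110504971 likewise lies 1253 bases from a second slc25a43 copy, 110504970. In H12h, both genes of the chromosome 14 pair had their highest level in replicate 2, at 234 and 13.8 scaled FPKM, but replicate 3 stood at 111, above every N library, for Slc25a5 and at 0.875, inside N, for slc25a43. Copy 110504970, named for its position, had 1.08 ± 0.384 (SD, n = 3) in N, 2.77 ± 1.44 in H12h and 2.09 ± 0.528 in R3h, a difference of 0.95 ± 0.50 in R3h (edgeR adjusted p = 0.234). An unnamed gene lies on the opposite strand within it, and whether the counting used strand is not given in the sources used here.

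Genes that work with the carriers were read from lists of partners. Of 5 mitochondrial pyruvate carrier genes, the 2 MPC1 copies rose in R3h, while 2 of the 3 MPC2 copies had lower levels that were not called. Copy 110499396 had 22.7, 29.9 and 28.4 scaled FPKM in N and 112, 90.8 and 213 in R3h, without overlap, a rise of 2.36 ± 0.39 (edgeR adjusted p = 0.0155), and copy 110502720 rose by 1.87 ± 0.37 (adjusted p = 0.0214). MPC2 copy 110495630 had 5.7, 2.28 and 4.87 in N and 1.4, 1.22 and 0.917 in R3h (-1.86 ± 0.67, adjusted p = 0.103). MPC2 copy 110495631 had 9.54, 2.86 and 7.44 in N and 0.951, 2.45 and 0.426 in R3h (-2.35 ± 0.91, adjusted p = 0.123). Neither overlapped N, and the remaining MPC2 copy 110520575 differed by 1.33 ± 0.47 (adjusted p = 0.099). Of 12 malate-aspartate shuttle enzyme genes 2 rose, GOT1 copy 110485609 by 1.93 ± 0.35 (adjusted p = 0.0184) and MDH2 copy 110537548 by 1.42 ± 0.32 (adjusted p = 0.0306), while their other copies were not called. Of 10 outer membrane channel genes, VDAC2 copy 110499468 rose by 1.22 ± 0.27 (adjusted p = 0.028), and the other VDAC2 copies ranged from -0.76 to 0.83 without a call. Higher calls made up 3.55% of all genes in this comparison and lower calls 1.79%. Values of these partner calls with a library left out are not given here. Without replicate 1 or 3 of N, 0.0628 and 0.04% of all genes were called in R3h against N.

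None of 17 genes of carrier import, 10 carnitine shuttle enzymes and 3 biogenesis regulators was called in R3h against N, and no gene of any of these lists was called lower. The median log2 fold change in R3h was 1.33 for the pyruvate carrier (3 of 5 positive, from -2.35 to 2.36), 0.66 for the malate-aspartate enzymes, 0.48 for the channels, 0.34 for carrier import and -0.21 for the carnitine shuttle. The median over all genes tested was -0.04.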

How the data were processed

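The authors deposited 1 table with a count and an FPKM value for each gene and library, per the file headers. Reads were handled with TopHat2 2.1.1 and Bowtie2 2.2.8, per the submitters' processing notes. The sources used here name no genome build, annotation or counting tool. FPKM were divided by TMM factors for display. Genes with a mean of at least 0.5 FPKM (17502) were fitted on counts with edgeR 4.0.16 in R 4.3.3, one mean per group, all 15 libraries sharing 1 spread estimate. The quasi-likelihood test ran across the 5 groups and for 6 comparisons, with Benjamini-Hochberg adjustment over all genes tested and a threshold of 0.05. The code was tested on simulated data. Alternatives were RLE scaling, no filter on low values, DESeq2 1.42.0, limma 3.58.1 on log2(FPKM + 1), limma-voom with library weights, a replicate block, each library left out and copies summed. The adjusted p over summed copies comes from its own fit. Precision is limited by 3 libraries per group and, for low members, by counting error.

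Members and lists were chosen with earlier results of these data known. Named genes are all called members, the highest tested member of each role group and those with the largest fold change in each direction of each comparison, with library values for called members and the 12 smallest p. RefSeq's gene table (USDA_OmykA_1.1) held 98 of the 104 members, and no coordinate was taken from it. Names here are the deposited ones, and RefSeq's symbol differs for some members. Examples are slc25a55a for SLC25A22 copy 110527759 and slc25a37 for mitoferrin copy 110536004. Reads of near-identical copies may have been split between them, which makes single-copy values uncertain. Some items are not reported here.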

Additional observations from a re-analysis of the deposited data

How the results depend on the processing

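The members called across the 5 groups numbered 6, and 22 with DESeq2 (25.7% of all genes called), 53 with limma-voom and library weights (69.2%) and 3 with the replicate block (3.5%), with 0 to 14 when 1 library was left out. In H12h against N the count of 0 became 2 with no filter on low values (0.283% of all genes), 9 with DESeq2 (4.73%) and 25 with limma-voom (39.4%), with 0 to 8 when 1 library was left out. In H24h against N it became 3 with DESeq2 (7.2%) and 25 with limma-voom (46.8%), with 0 to 1. In R3h against N the 3 (2 higher, 1 lower) became 8 with DESeq2 (5 higher; 15.9% of all genes), 5 with limma on log2(FPKM + 1) (1 higher; 10.8%) and 21 with limma-voom (13 higher; 36.3%), with 0 to 6. In H24h against H12h it became 6 with DESeq2 (4.59%) and 18 with limma-voom (25.8%), with 0 to 7. The counts in H3h against N and R3h against H24h stayed at 0 in all these fits. Across groups, 14 members were called without replicate 3 of R3h (15.3% of all genes) and 13 without replicate 3 of H12h (10.6%). The count was 0 without replicate 3 of N (1.14% of all genes) or replicate 1 of H12h (1.63%). Limma on log2(FPKM + 1) called 11.6% of all genes across groups. There slc25a48 110504517 (adjusted p = 0.039) and slc25a36a 110530143 (0.014) were called. Slc25a5 110488772 (0.078), SLC25A22 110494701 (0.13), slc25a43 110488771 (0.071) and Slc25a5 110504971 (0.11) were not called in that fit. In R3h against N, 0 were called without replicate 1 or 3 of N, where 0.0628 and 0.04% of all genes were called. Without replicate 2 of R3h 6 were called (14% of all genes). With copies summed, 2 families were called across groups, against 5 with a called copy. SLC25A48 was in both counts, SLC25A39 had no called copy, and SLC25A5 (0.0594), SLC25A43 (0.0638), SLC25A22 (0.12) and SLC25A36 (0.769) were not called. In R3h against N 1 was called, SLC25A5, against 2.

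The values do not settle whether replicate numbers pair the libraries. Over 30 same-numbered pairs the correlation of deviations was -0.206 to 0.367, with 8 over 0.1. Of the 15 libraries, 9 were nearest to their own number. With the replicate block the R3h against N calls had adjusted p (edgeR) of 0.039, 0.048 and 0.037 for Slc25a5 110488772, Slc25a5 110504971 and slc25a36a. Across groups the block lost the calls of SLC25A22 110494701 (0.091), slc25a43 110488771 (0.073) and Slc25a5 110504971 (0.075), while slc25a48 (0.041), Slc25a5 110488772 (0.046) and slc25a36a (0.048) were still called.

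Directions reversed for Slc25a5 100301662 (-0.09) and SLC25A20 110494978 (-0.08) in R3h against N with limma on log2(FPKM + 1), and for slc25a46 110523880 with limma-voom (-0.59) and without replicate 3 of R3h (-0.55, in a range up to 1.18 with 1 library left out). The causes were not tested.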

Other observations

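In the deposited annotation all 104 members carry a gene ontology term. Of these, 57 carry mitochondrial inner membrane and 58 mitochondrial transport, while 47 also carry structural constituent of ribosome and translation. A term search for ribosomal genes in this annotation would therefore take in mitochondrial carriers.

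Beyond the carriers, 1 of 10 carnitine shuttle enzyme genes and 1 of 3 biogenesis regulators were called across the 5 groups (edgeR). Of all genes 7.24% were called in that test, so such counts are not set apart from the rest. CPT1A copy 100136831, of a gene that commits fatty acids to mitochondrial oxidation, had 4.48, 5.47 and 6.04 scaled FPKM in N, 22.7, 15.6 and 12.3 in H24h, and 8.5, 8.82 and 4.14 in R3h. Its adjusted p across the 5 groups was 0.0363 (edgeR), and it was not called in H24h against N. Every H24h library was above every library of N and R3h. Of the 6 tested CPT1A copies this was the 1 called across groups. Copy 100653436 had 5.86, 3.77 and 5.15 in N and 2.92, 1.54 and 1.67 in H24h, below N without overlap. Its log2 fold change in H24h against N was -1.27 ± 0.69 (edgeR adjusted p = 0.328). Ppargc1b, a coactivator of mitochondrial genes, had 2.2, 1.79 and 3.31 in N and 11.2, 10.5 and 4.5 in H12h, with replicate 3 again the lowest of H12h and here still above N. Its adjusted p across the 5 groups was 0.039 (edgeR), and it was not called in H12h against N.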
